A study of Mus musculus with 27 samples.

Results

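The 10 genes described here carry lipid out of, into and within macrophages: *Abca1*, *Abcg1*, *Apoe* and *Nr1h3* of cholesterol efflux, *Lpl* and *Cd36* of fatty acid uptake, *Plin2*, *Fabp4* and *Fabp5* of lipid storage and transport inside the cell, and *Trem2*, a lipid-sensing receptor. They were taken by name from a table of 50559 genes, and all 10 were among the 13614 genes that passed the filter on low counts. Macrophages take up lipoproteins and free fatty acids, store the surplus as cholesterol esters and triglycerides in droplets, and hand cholesterol back to lipoproteins through membrane transporters. Sterols switch on the efflux genes through the nuclear receptors of the LXR family, while the receptor PPARγ, which responds to fatty acids and is induced by IL-4, acts on uptake and transport genes such as *Cd36* and *Fabp4*. Lipid-laden macrophages are known from atherosclerotic plaques, obese adipose tissue and tumors.

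The genes were measured by 3′ mRNA-seq (QuantSeq, which reads the end of each transcript next to its poly(A) tail) in murine bone marrow-derived macrophages (BMDMs). The study asked whether a medium conditioned by malignant peripheral nerve sheath tumor cells (MPNST-CM) changes macrophages, and whether TRAP1, a mitochondrial chaperone, is involved. The cells came from age-matched female C57BL/6 mice of 3 to 4 months, from wild-type animals (WT) or from animals without TRAP1 (knock-out, KO), and had grown in medium with L929-conditioned medium as the source of M-CSF. They were left unpolarized (Mφ, M0 in the labels) or given 10 ng/mL of IL-4 over 24 h (M2), and then kept for 48 h in control medium (DMEM) or in MPNST-CM, changed for fresh MPNST-CM after the first 24 h. The study's methods do not name the line behind the conditioned medium of these libraries. It was taken to be sMPNST, because the study treats NPCIS and cisMPNST cells as additional models. Per the methods sMPNST is a murine line from tumors of transplanted skin-derived precursors that lack Nf1 and p53. If so, the medium stands for 1 tumor line. The knock-out was not restricted to macrophages as far as the sources say, and every group had the same L929 step. The 8 groups of genotype, polarization and medium had 3 libraries each in the batch called batch1 by the labels, and these 24 libraries gave the results below. The sources do not say that replicates were separate animals, so the p-values measure the spread between these libraries, which may be technical.

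The libraries held 7037684 to 9089792 gene counts each, and *Nr1h3*, the member with the fewest reads, had between 27 and 142 of them. *Trap1* had 10.4 to 18.8 CPM (counts scaled to a common library total with TMM factors) in the 12 WT libraries and no read in the 12 KO libraries, where 0 counts allow up to 3. *Xist*, the RNA that coats the inactive X chromosome, had 2079 to 4010 counts in the WT and 0 to 9 counts in the KO libraries of batch1, although both are described as female, and the Y-linked *Ddx3y* had 0 counts in every library. Genotype and *Xist* level cannot be told apart in these 24 libraries. The 8 macrophage markers, among them *Adgre1* and *Csf1r*, were present throughout with a summed level of 7893 to 12321 CPM. None of 7 adipocyte markers passed the filter, 2 of them were at 0 everywhere and their sum was at most 1.47 CPM, although *Lpl*, *Cd36* and *Fabp4* are also abundant in fat cells. A list of 5 endothelial markers, with 2 at 0 everywhere, summed to 29.97 to 71.7 CPM. Nearly all of it was *Vwf* and *Kdr*, which moved between groups and not always together. Between Mφ and M2 of WT cells in control medium, *Vwf* rose from a mean of 14.3 to 53.2 CPM and *Kdr* fell from 18.5 to 3.05 CPM. Lists for 6 other cell types had lower sums, up to 0.529 CPM for lymphocytes, 4.12 CPM for neutrophils, 4.40 CPM for mast cells, basophils and eosinophils, 4.65 CPM for fibroblasts, 10.8 CPM for the Schwann lineage and 19.6 CPM for dendritic cells. Single genes of these lists moved too. With IL-4 in WT cells in control medium *Mcpt8* of basophils rose from a mean of 0.0409 to 2.03 CPM and *Ccr7* of dendritic cells from 0.288 to 4.35 CPM. With MPNST-CM in KO Mφ *Ccr7* rose from 0.342 to 4.04 CPM and *Ly6g* of neutrophils from 0.0834 to 1.87 CPM. The part of these lists in the results was not tested. As in any bulk sample, fewer cells that express a gene and less of its RNA per cell cannot be told apart.

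Of the 24 libraries, 6 stood apart from both other replicates of their group, their chi-square over genes, divided by its degrees of freedom, being 10.8 to 37.4 against 2.11 to 4.26 between those other replicates. WT M2 in control medium had replicates 2, 3 and 4 and, unlike the other groups of batch1, no replicate 1. The 6 libraries were replicate 1 of the 4 Mφ groups and of WT M2 in MPNST-CM, and replicate 2 of KO M2 in control medium. Without them 3 of the calls on the 10 genes were lost and 23 further values were called. The lost calls, and some of the added ones, are given with the gene. A further 3 libraries, of batch2, lie outside the results, which were set to the libraries of batch1. Of the 3, 2 were closest to another group than the one on their label. That of WT Mφ in control medium was closest to its own group (Spearman's rho 0.988 across genes). The library labelled KO M2 in MPNST-CM correlated best with WT M2 in control medium (Spearman's rho 0.983 across genes, against 0.949 with its own group). That labelled KO M2 in control medium correlated best with KO Mφ in MPNST-CM (0.969 against 0.914). Both had at most 2 reads of *Trap1*, against 252 in the batch2 library of WT Mφ. Of the 109 calls on the 10 genes described below, 96 were kept in every alternative without these libraries or with the one of WT Mφ alone, and 40 when a fit of all 27 libraries was included.

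Promoters of 4 members are shown, those in which a short motif of a nuclear receptor, of E-box binding factors or of STAT6, the factor that IL-4 activates, was found. RefSeq windows (GRCm38.p6, 250 bases before to 50 bases from the gene start) matched 6 of the 10 members, and those of *Abca1* (chr4:53159846-53160145, minus strand), *Plin2* (chr4:86670010-86670309, minus strand), *Cd36* (chr5:17835847-17836146, minus strand) and *Trem2* (chr17:48346151-48346450, plus strand) hold at least 1 of 3 short motifs, drawn in capitals on the strand of the gene. These were the nuclear receptor half-site AGGTCA (read as TGACCT on the other strand), the E-box CACGTG and the STAT6-type palindrome of TTC and GAA with 4 bases between them.
Abca1: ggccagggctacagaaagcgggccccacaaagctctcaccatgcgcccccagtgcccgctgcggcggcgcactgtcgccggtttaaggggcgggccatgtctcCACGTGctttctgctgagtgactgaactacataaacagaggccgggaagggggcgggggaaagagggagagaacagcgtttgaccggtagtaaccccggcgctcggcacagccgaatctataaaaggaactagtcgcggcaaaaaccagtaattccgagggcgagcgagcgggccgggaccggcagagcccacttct
Plin2: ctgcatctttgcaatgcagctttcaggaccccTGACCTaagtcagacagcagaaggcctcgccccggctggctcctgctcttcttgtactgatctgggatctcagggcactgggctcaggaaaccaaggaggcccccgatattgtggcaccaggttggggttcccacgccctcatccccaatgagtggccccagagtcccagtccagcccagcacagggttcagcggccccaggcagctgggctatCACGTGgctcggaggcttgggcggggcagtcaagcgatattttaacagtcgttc
Cd36: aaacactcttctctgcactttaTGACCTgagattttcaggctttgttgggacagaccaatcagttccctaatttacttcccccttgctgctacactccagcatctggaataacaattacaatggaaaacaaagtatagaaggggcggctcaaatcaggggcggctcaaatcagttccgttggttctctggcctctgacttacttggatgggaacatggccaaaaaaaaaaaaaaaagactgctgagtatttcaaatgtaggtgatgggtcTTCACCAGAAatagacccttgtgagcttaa
Trem2: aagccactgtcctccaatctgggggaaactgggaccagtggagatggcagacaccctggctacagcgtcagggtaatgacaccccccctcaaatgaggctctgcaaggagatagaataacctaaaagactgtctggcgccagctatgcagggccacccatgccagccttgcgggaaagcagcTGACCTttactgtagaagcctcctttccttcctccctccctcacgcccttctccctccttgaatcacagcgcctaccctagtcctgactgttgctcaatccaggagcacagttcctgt
The half-site began at base -218 of *Plin2*, -228 of *Cd36* and -68 of *Trem2*, counted from the gene start, and 16.255% of all 32851 windows hold it on either strand. The E-box began at -147 of *Abca1* and -4 of *Plin2* (7.15% of windows), and the palindrome 20 bases into the *Cd36* transcript (6.953%). The half-site AGGTCA repeated on the same strand with 1 base (DR1) or 4 bases (DR4) between the copies, which PPAR and LXR dimers can bind, was in 0.04% and 0.015% of windows and in none of those of the 6 members, which says only that these letters are not in these windows. The letters of DR1 and DR4 contain the half-site. No coordinate was converted to the build of the counts.

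The 10 genes moved with all 3 factors of the design. A gene was called where its edgeR quasi-likelihood p, adjusted by Benjamini-Hochberg over all 13614 genes, was under 0.05, and each count is read against the share of all genes called in the same direction, given as a percentage beside it. MPNST-CM raised 2 (11.3%) and lowered 4 members (9.96%) in WT Mφ. It raised none (14.8%) and lowered 7 (18.1%) in KO Mφ. In M2 it raised none (11.2%) and lowered 8 (13.3%) in WT, and raised 1 (16.7%) and lowered 8 (20.2%) in KO. Their median log2 fold change lay between -0.44 in WT Mφ and -0.90 in KO Mφ, where the median of all genes was between -0.042 and -0.012. In KO against WT cells, 6 members were higher (8.64% of all genes) and none lower (7.97%) in Mφ in control medium, and 5 were higher (8.56%) and 2 lower (7.87%) in M2 in control medium. In MPNST-CM the same contrast gave 4 higher (19.1%) and 4 lower (19.2%) in Mφ, and 4 higher (17.2%) and 4 lower (16.8%) in M2. M2 against Mφ cells had 8 members higher (19.1%) and 2 lower (18.1%) in WT in control medium, and 6 higher (15.6%) and 2 lower (12.9%) in KO in control medium. In MPNST-CM IL-4 raised 4 (11.9%) and lowered 1 (13%) in WT, and raised 5 (6.71%) and lowered 1 (4.47%) in KO. Comparisons with a group in common share its libraries and are not independent.

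**Figure D1:**
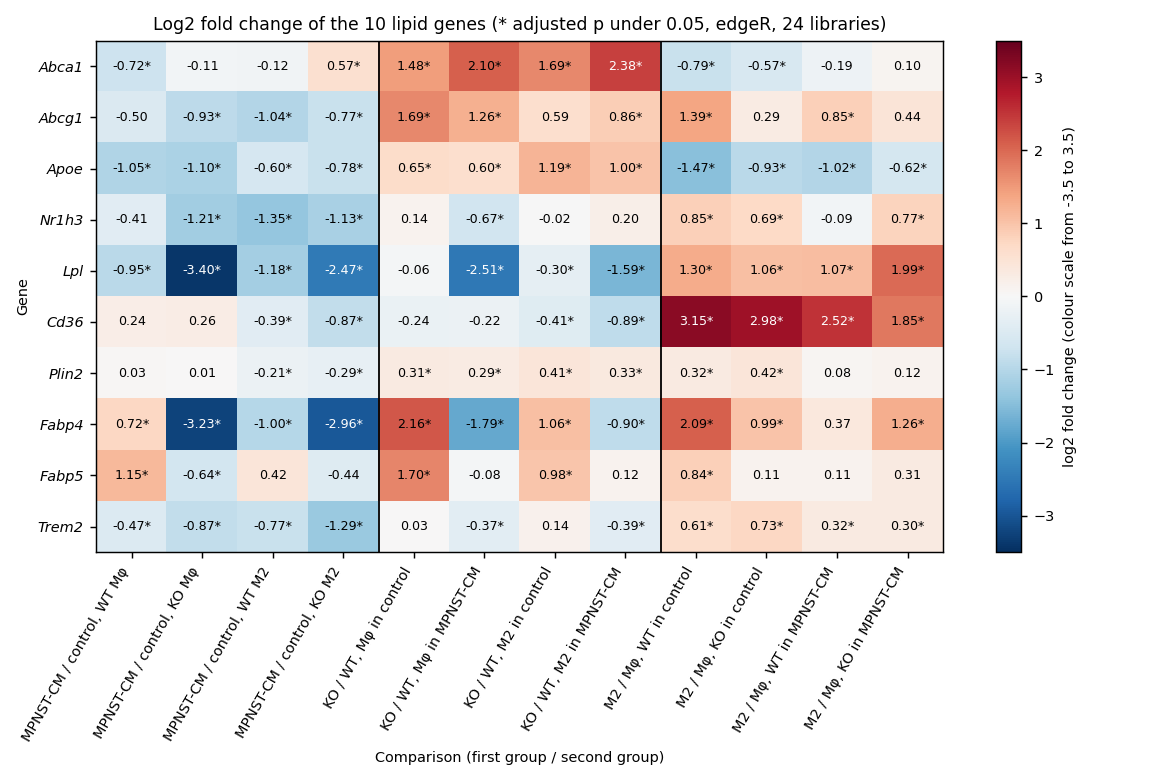
Log2 fold changes of the 10 genes (rows) in 12 comparisons (columns), from 1 edgeR fit of 24 libraries, with an asterisk where the adjusted p was under 0.05 and black lines between the comparisons of medium, genotype and IL-4. The *Abca1*, *Apoe* and *Plin2* rows are positive and marked in all 4 columns of KO against WT, the *Apoe*, *Lpl* and *Trem2* rows are negative and marked in all 4 columns of MPNST-CM against control, and *Fabp4* changes sign between control medium and MPNST-CM in the KO against WT columns.

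*Abca1*, the transporter that loads cholesterol onto lipid-poor apolipoprotein A-I, was higher in KO than in WT cells in all 4 settings. In control medium its level was 191, 176 and 186 CPM in WT Mφ and 564, 500.4 and 476 CPM in KO Mφ. It was 107, 108 and 104 CPM in WT M2 and 385, 251 and 398 CPM in KO M2. In MPNST-CM it was 94.6, 121 and 119 CPM in WT Mφ against 478, 481 and 473 CPM in KO Mφ, and 108, 97.8 and 88.2 CPM in WT M2 against 519.9, 549 and 462 CPM in KO M2. The lowest of the 12 KO libraries of batch1, replicate 2 of M2 in control medium, was above the highest of the 12 WT libraries of batch1. The batch2 libraries labelled KO M2 were not so high, with CPM scaled over all 27 libraries. *Abca1* had 187 CPM in that of MPNST-CM and 184 CPM in that of control medium. Both values lay within 177 to 192 CPM, the batch1 range of WT Mφ in control medium. The batch2 library of WT Mφ had 175 CPM. The log2 fold change of KO against WT was 1.48 ± 0.13 (SE, edgeR adjusted p = 2.7e-09) in Mφ and 1.69 ± 0.13 (SE, edgeR adjusted p = 4.78e-10) in M2 in control medium. In MPNST-CM it was 2.10 ± 0.13 (SE, edgeR adjusted p = 1.02e-12) in Mφ and 2.38 ± 0.13 (SE, edgeR adjusted p = 1.56e-13) in M2. The level fell with MPNST-CM in WT Mφ by 0.72 on the log2 scale (edgeR adjusted p = 0.000129), rose in KO M2 by 0.57 (adjusted p = 0.000572), and gave -0.11 in KO Mφ and -0.12 in WT M2, neither of which was called. In the order of the 4 KO groups, Mφ in control medium overlapped in range with M2 in MPNST-CM and that group with Mφ in MPNST-CM, while M2 in control medium lay below all 3.

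*Abcg1*, the transporter that passes cholesterol on to formed HDL particles, was higher in KO cells in 3 of the 4 settings. In Mφ in control medium it stood at 156, 190.4 and 209.7 CPM in WT and 541, 633 and 618 CPM in KO, and the libraries did not overlap (1.69 ± 0.23 SE, edgeR adjusted p = 3.37e-05, log2 fold change). In M2 in control medium it was 469.8, 472 and 515 CPM in WT and 838, 508 and 849 CPM in KO. Here replicate 2 of the KO group lay within the WT range and the other 2 well above it, and the difference of 0.59 was not called (adjusted p = 0.0836). Without the 6 libraries that stood apart it was 0.80 (adjusted p = 1.16e-18, 18 libraries, chosen after the data were seen). In MPNST-CM the difference was 1.26 ± 0.23 (SE, edgeR adjusted p = 0.000272) in Mφ and 0.86 ± 0.23 (SE, edgeR adjusted p = 0.00694) in M2. MPNST-CM lowered *Abcg1* in KO Mφ by 0.93, in WT M2 by 1.04 and in KO M2 by 0.77 on the log2 scale (adjusted p = 0.00367, 0.00228 and 0.0113), the last not called without replicate 1 or replicate 3 of KO M2 in control medium. In WT Mφ its value of -0.50 was not called, with levels in MPNST-CM of 72.8, 159 and 163 CPM, where replicate 1 was the low one, and was called without the 6 libraries (-0.31, adjusted p = 0.000136). IL-4 raised it in WT cells, by 1.39 in control medium and 0.85 in MPNST-CM, while 0.29 and 0.44 in KO cells were not called.

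*Apoe*, the apolipoprotein that macrophages secrete and that carries cholesterol away, changed in every one of the 12 comparisons. Mφ in control medium had 928, 803 and 816 CPM in WT and 1285, 1308 and 1410.0 CPM in KO. Mφ in MPNST-CM had 484, 358 and 391 CPM in WT and 653, 637 and 577 CPM in KO. In M2 in control medium it was 334, 296 and 289 CPM in WT and 673, 748 and 673 CPM in KO. In MPNST-CM it was 168, 224 and 214 CPM in WT and 403, 404 and 409 CPM in KO. WT and KO libraries did not overlap in any of these 4 pairs, with the KO libraries on top. KO exceeded WT cells by 0.65 ± 0.10, 0.60 ± 0.10, 1.19 ± 0.10 and 1.00 ± 0.11 on the log2 scale (SE), in Mφ in control medium, Mφ in MPNST-CM, M2 in control medium and M2 in MPNST-CM (largest adjusted p = 4.25e-05). MPNST-CM lowered it by 1.05 in WT Mφ, 1.10 in KO Mφ, 0.60 in WT M2 and 0.78 in KO M2, and the response of KO less that of WT was -0.055 ± 0.15 in Mφ and -0.18 ± 0.15 in M2, neither called. IL-4 lowered it by 1.47 and 1.02 in WT cells in control medium and MPNST-CM and by 0.93 and 0.62 in KO cells. Addition of the batch2 library of WT Mφ, at 378 CPM, to the fit ended the *Apoe* calls of MPNST-CM in WT M2 (adjusted p = 0.0644) and of IL-4 in KO cells in MPNST-CM (adjusted p = 0.0595, 25 libraries, chosen after the data were seen).

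*Nr1h3* encodes LXRα, the sterol receptor that switches on *Abca1*, *Abcg1* and *Apoe* in macrophages. Its level in control medium was 8.59, 8.99 and 10.3 CPM in WT Mφ, 9.38, 10.3 and 10.9 CPM in KO Mφ, 16.4, 18.4 and 15.3 CPM in WT M2 and 16.2, 14.5 and 18.8 CPM in KO M2. WT and KO overlapped in both cell types, while all M2 libraries lay above all Mφ libraries. In MPNST-CM it was 7.64, 6.92 and 6.47 CPM in WT Mφ, 4.62, 5.11 and 3.44 CPM in KO Mφ, 6.41, 6.22 and 7.05 CPM in WT M2 and 6.08, 7.57 and 8.86 CPM in KO M2. MPNST-CM lowered it in KO Mφ (-1.21 ± 0.18 SE, edgeR adjusted p = 3.74e-06), in WT M2 (-1.35 ± 0.16 SE, edgeR adjusted p = 4.43e-07) and in KO M2 (-1.13 ± 0.16 SE, edgeR adjusted p = 2.53e-06), and the value of -0.41 in WT Mφ was not called (adjusted p = 0.0872). Of the 4 genotype contrasts 1 was called, that of Mφ in MPNST-CM, where KO was lower by 0.67 on the log2 scale (adjusted p = 0.00443). The response of KO less that of WT Mφ was -0.81 (adjusted p = 0.0187) and that of M2 less that of Mφ in WT cells -0.94 (adjusted p = 0.00779). Neither was called without the 6 libraries that stood apart (-0.80, adjusted p = 0.0585, and -0.75, adjusted p = 0.0678). In the 4 settings in which *Abca1* was higher in KO cells, *Nr1h3* had log2 fold changes of 0.14, -0.67, -0.020 and 0.20, in Mφ in control medium, Mφ in MPNST-CM, M2 in control medium and M2 in MPNST-CM. Any part of the receptor, by its level or its activity, in the *Abca1* values was not tested.

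**Figure D2:**
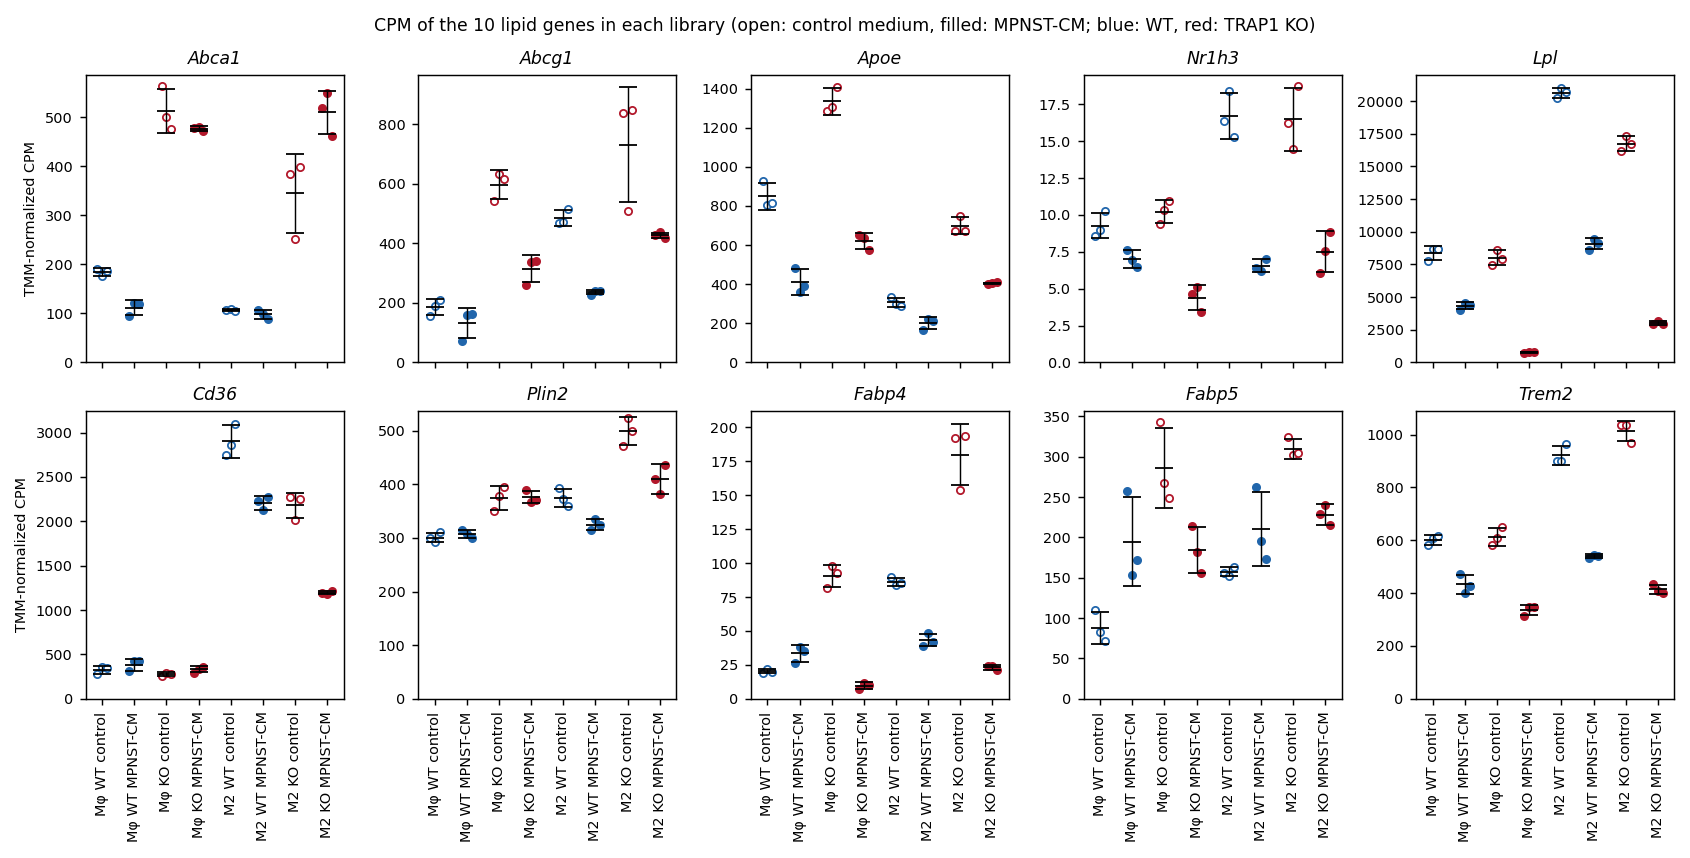
TMM-normalized CPM of each of the 10 genes (panels, linear axes from 0) in 24 libraries of 8 groups, with open circles for control medium, filled circles for MPNST-CM, blue for WT and red for TRAP1 KO. Bars give the mean and SD of 3 libraries. *Abca1* is above 250 CPM in all red and below 200 CPM in all blue circles, *Lpl* falls from 8010 to 758 CPM between the KO Mφ groups, and *Cd36* is between 1177 and 3101 CPM in M2 and below 450 CPM in Mφ.

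Other genes of the cholesterol pathway were taken from a list of 22, of which 21 were tested. In KO against WT cells 9 were higher (8.64% of all genes) and none lower (7.97%) in Mφ in control medium, and 7 higher (8.56%) and 1 lower (7.87%) in M2 in control medium. In MPNST-CM 6 were higher (19.1%) and 3 lower (19.2%) in Mφ, and 7 higher (17.2%) and 6 lower (16.8%) in M2. The median log2 fold change of the list was 0.38, 0.24, 0.24 and 0.22 in these 4 comparisons, beside 0.027, 0.017, 0.043 and 0.053 for all genes. *Mylip*, an LXR target, was higher in KO cells in all 4, by 1.18, 1.30, 1.03 and 1.08. *Cyp27a1*, which makes the LXR ligand 27-hydroxycholesterol, was higher in KO cells in control medium, with means of 125 against 54.9 CPM in Mφ and 64.4 against 30.6 CPM in M2, and fell with MPNST-CM in WT Mφ by 1.97 and in KO Mφ by 2.38 on the log2 scale. *Lipa*, the lysosomal acid lipase that frees cholesterol from esters, fell with MPNST-CM in all 4 settings, by 0.57 in WT Mφ, 2.09 in KO Mφ, 0.90 in WT M2 and 2.13 in KO M2. *Scarb1*, the HDL receptor SR-BI, fell with MPNST-CM in KO cells from a mean of 152 to 50.7 CPM in Mφ and from 145 to 46.5 CPM in M2. *Soat1*, which esterifies cholesterol for storage, rose with IL-4 in all 4 settings, from 0.70 in KO cells in MPNST-CM to 1.25 in WT cells in control medium.

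*Lpl*, lipoprotein lipase, releases fatty acids from triglyceride-rich lipoproteins, and its response to MPNST-CM was larger in KO than in WT cells. In control medium Mφ had 7743, 8657 and 8682 CPM in WT and 7464, 8618 and 7947 CPM in KO. In MPNST-CM Mφ had 4021, 4532 and 4415 CPM in WT and 681, 779 and 814 CPM in KO. In M2 in control medium it was 20259, 21000.2 and 20672 CPM in WT and 16193, 17337 and 16706 CPM in KO. In MPNST-CM it was 8625, 9481 and 9160.2 CPM in WT and 2969, 3169 and 2911 CPM in KO. Libraries in MPNST-CM lay below those in control medium in all 4 pairs, and WT and KO overlapped in Mφ in control medium only. The fall with MPNST-CM was -0.95 ± 0.077 (SE, edgeR adjusted p = 7.97e-10) in WT Mφ and -3.40 ± 0.084 (SE, edgeR adjusted p = 6.49e-21) in KO Mφ, a 10.6-fold lower mean in the latter. In M2 it was -1.18 ± 0.077 (SE, edgeR adjusted p = 4.87e-12) in WT and -2.47 ± 0.081 (SE, edgeR adjusted p = 8.15e-19) in KO. The KO response less the WT response was -2.45 ± 0.11 (SE, edgeR adjusted p = 1.55e-14) in Mφ (with 1 member above the WT response, beside 8.17% of all genes, and 5 below it, beside 11.5%) and -1.29 ± 0.11 (SE, edgeR adjusted p = 1.2e-09) in M2 (again 1 above, beside 9.36%, and 5 below, beside 10.8%). IL-4 raised *Lpl* in all 4 settings, by 1.30 and 1.06 in WT and KO cells in control medium and by 1.07 and 1.99 in MPNST-CM. With all 27 libraries the M2 difference of responses was 0.0010 (adjusted p = 1.00), and the batch2 library labelled KO M2 in MPNST-CM had 14134 CPM and that labelled KO M2 in control medium 1346 CPM.

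*Cd36*, the scavenger receptor that takes up fatty acids and oxidized LDL, followed IL-4. Mφ had 278, 353 and 348 CPM in WT and 256, 294 and 281 CPM in KO in control medium. They had 308, 422 and 426 CPM in WT and 295, 338 and 362 CPM in KO in MPNST-CM. M2 cells had 2743, 2856 and 3101 CPM in WT and 2272, 2019 and 2249 CPM in KO in control medium. They had 2233, 2122 and 2275 CPM in WT and 1193, 1177 and 1216 CPM in KO in MPNST-CM. Every M2 library was above every Mφ library. The rise with IL-4 was 3.15 ± 0.11 and 2.98 ± 0.11 (log2, SE) in WT and KO cells in control medium and 2.52 ± 0.11 and 1.85 ± 0.11 in MPNST-CM (largest adjusted p = 9.45e-13). In M2 cells MPNST-CM lowered it in WT by 0.39 (adjusted p = 0.00637, not called without replicate 1 of WT M2 in MPNST-CM or replicate 4 in control medium) and in KO by 0.87 (adjusted p = 1.85e-07), and KO was lower than WT by 0.41 in control medium and 0.89 in MPNST-CM. In Mφ neither contrast was called in the 24 libraries, with 0.24 and 0.26 for MPNST-CM in WT and KO and -0.24 and -0.22 for KO against WT in control medium and MPNST-CM. Without the 6 libraries that stood apart all 4 were called, at 0.28, 0.27, -0.28 and -0.30.

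From a list of 27 genes of fatty acid uptake, activation and oxidation, 23 were tested. With MPNST-CM 3 were higher (16.7% of all genes) and 13 lower (20.2%) in KO M2, and 6 higher (11.2%) and 7 lower (13.3%) in WT M2. In Mφ 5 were higher (14.8%) and 7 lower (18.1%) in KO, and 7 higher (11.3%) and 2 lower (9.96%) in WT. IL-4 raised 12 (19.1%) and lowered 2 (18.1%) in WT cells in control medium, with a list median of 0.42 beside -0.035 for all genes. *Pparg*, which encodes PPARγ, fell with MPNST-CM from a mean of 50.6 to 5.61 CPM in KO Mφ (edgeR adjusted p = 5.15e-05), from 51.04 to 13.6 in KO M2 (adjusted p = 0.00214) and from 78.4 to 35.6 in WT M2 (adjusted p = 0.0474). *Ppargc1b*, its coactivator, rose with IL-4 in control medium by 2.85 in WT and 1.93 in KO cells and fell with MPNST-CM in M2 cells by 1.49 and 1.94. *Msr1*, the scavenger receptor for modified LDL, rose with MPNST-CM in Mφ by 0.93 in WT and 2.17 in KO cells.

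*Plin2*, the perilipin that coats lipid droplets in most cells, moved little. In WT cells it had 299.5, 292 and 310.2 CPM in Mφ and 393, 372 and 359.7 CPM in M2 in control medium. It had 315, 308 and 300.3 CPM in Mφ and 314, 335 and 324 CPM in M2 in MPNST-CM. KO cells had 349.9, 377 and 395 CPM in Mφ and 472, 524 and 500.0 CPM in M2 in control medium. They had 389, 367 and 371 CPM in Mφ and 409.9, 381 and 437 CPM in M2 in MPNST-CM. In each of the 4 pairs all KO libraries were above all WT libraries. KO was higher by 0.31, 0.29, 0.41 and 0.33 on the log2 scale in Mφ in control medium, Mφ in MPNST-CM, M2 in control medium and M2 in MPNST-CM (SE 0.070 each, largest adjusted p = 0.00173). The value of Mφ in control medium was 0.21 and not called with the batch2 library of WT Mφ added (adjusted p = 0.0705). With MPNST-CM *Plin2* was lower by 0.29 in KO M2 (adjusted p = 0.00173) and by 0.21 in WT M2 (adjusted p = 0.0290, a call lost in 10 alternatives, with -0.12 and adjusted p = 0.128 without the 6 libraries that stood apart), and in Mφ the values were 0.033 and 0.006.

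*Fabp4*, a fatty acid chaperone of macrophages and fat cells and a PPARγ target, had a genotype difference of opposite sign in the 2 media. In control medium Mφ had 18.9, 22.02 and 19.9 CPM in WT and 81.7, 97.5 and 93.0 CPM in KO. M2 had 89.4, 83.9 and 85.4 CPM in WT and 192, 154 and 194 CPM in KO. In MPNST-CM Mφ had 26.3, 38.5 and 35.5 CPM in WT and 6.87, 11.7 and 10.3 CPM in KO. M2 had 39.2, 48.2 and 42.02 CPM in WT and 24.5, 23.8 and 21.1 CPM in KO. All KO libraries were above the WT libraries in control medium and below them in MPNST-CM. KO against WT gave 2.16 ± 0.14 (SE, edgeR adjusted p = 2.94e-11) in Mφ and 1.06 ± 0.13 (SE, edgeR adjusted p = 1.73e-06) in M2 in control medium, and -1.79 ± 0.16 (SE, edgeR adjusted p = 6.76e-10) in Mφ and -0.90 ± 0.14 (SE, edgeR adjusted p = 1.77e-05) in M2 in MPNST-CM. MPNST-CM raised it in WT Mφ by 0.72 and lowered it in KO Mφ by 3.23, in WT M2 by 1.00 and in KO M2 by 2.96 on the log2 scale. The KO response less the WT response was -3.96 ± 0.21 (SE, edgeR adjusted p = 4.09e-13) in Mφ and -1.96 ± 0.20 (SE, edgeR adjusted p = 2.38e-08) in M2. With all 27 libraries the difference in M2 in MPNST-CM turned to 0.67 and was not called (adjusted p = 0.551), the batch2 library labelled KO M2 in MPNST-CM having 215 CPM. The adipocyte markers *Lep* and *Plin1* were at 0 in the 24 libraries. *Adipoq*, too low to be tested with at most 11 counts, moved as *Fabp4* did with IL-4 in control medium and with MPNST-CM in M2, without overlap. Its mean was 0 CPM in WT and 0.0438 CPM in KO Mφ and 0.730 CPM in WT and 1.07 CPM in KO M2 in control medium, and 0.208 CPM in WT and 0.168 CPM in KO M2 in MPNST-CM. Its part in the *Fabp4* values was not tested.

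*Fabp5*, the epidermal-type fatty acid chaperone, shared the higher level of KO cells in control medium and not the lower one in MPNST-CM. Its levels in control medium were 109.7, 82.5 and 71.8 CPM in WT Mφ, 343, 267 and 249 CPM in KO Mφ, 156, 153 and 164 CPM in WT M2 and 324, 302 and 304 CPM in KO M2. In MPNST-CM they were 258, 154 and 173 CPM in WT Mφ, 214, 182 and 157 CPM in KO Mφ, 262, 196 and 174 CPM in WT M2 and 229, 241 and 215 CPM in KO M2. KO libraries were all above WT libraries in control medium, and the genotypes overlapped in MPNST-CM, where replicate 1 was the highest of both WT groups. KO exceeded WT by 1.70 ± 0.19 (SE, edgeR adjusted p = 2.04e-06) in Mφ and 0.98 ± 0.19 (SE, edgeR adjusted p = 0.00105) in M2 in control medium. In MPNST-CM the difference was -0.079 ± 0.19 in Mφ and 0.12 ± 0.19 in M2, neither called (0.23, adjusted p = 0.00510, in M2 without the 6 libraries that stood apart). MPNST-CM raised it in WT Mφ (1.15 ± 0.19 SE, edgeR adjusted p = 0.000200) and lowered it in KO Mφ (-0.64 ± 0.19 SE, edgeR adjusted p = 0.0118, not called without replicate 1 in control medium or replicate 3 in MPNST-CM). The responses differed between genotypes by -1.78 in Mφ (adjusted p = 4.73e-05) and -0.86 in M2 (adjusted p = 0.0257, not called without replicate 3 of KO M2 in MPNST-CM). Reads of *Fabp5* could also fall on its processed copy *Fabp5l2*, which had 4 to 34 counts per library in batch1 against 630 to 2744 for *Fabp5*.

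**Figure D3:**
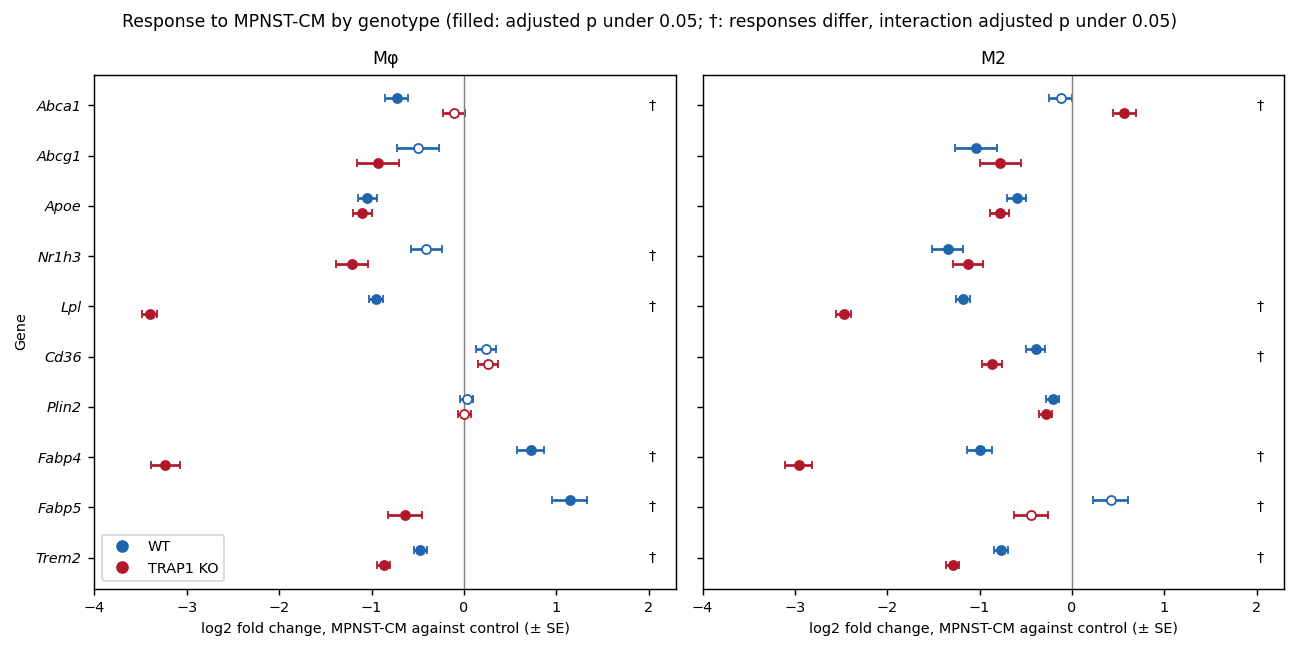
Log2 fold change of MPNST-CM against control medium (x axis, ± SE of the edgeR fit) for each of the 10 genes in WT (blue) and TRAP1 KO (red) Mφ (left) and M2 (right), filled where the adjusted p was under 0.05, with a dagger where the KO and WT responses differed at that threshold. *Lpl* and *Fabp4* have the widest gaps, -0.95 against -3.40 and 0.72 against -3.23 in Mφ, while both *Apoe* responses lie within 0.20 of each other.

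Among 24 other genes of droplets and triglyceride turnover, 16 were tested, and the droplet coat genes *Plin1*, *Plin4*, *Plin5* and *Cidec* were too low to be. KO Mφ in MPNST-CM had 8 of the 16 higher (19.1% of all genes) and 2 lower (19.2%) than WT, and KO M2 in MPNST-CM 6 higher (17.2%) and 4 lower (16.8%). In control medium 5 were higher in KO Mφ (8.64%) and 3 in KO M2 (8.56%), with none lower in either (7.97% and 7.87%). *Hilpda*, a hypoxia-inducible droplet protein that inhibits triglyceride lipolysis, rose with MPNST-CM in all 4 settings, from a mean of 16.2 to 31.5 CPM in WT Mφ, from 18.7 to 232 in KO Mφ, from 32.1 to 109 in WT M2 and from 38.6 to 387 in KO M2. In MPNST-CM it was higher in KO than in WT by 2.88 in Mφ (edgeR adjusted p = 4.74e-16) and 1.83 in M2 (adjusted p = 1.79e-12). *Mgll*, the lipase of the last step of triglyceride breakdown, had the sign pattern of *Fabp4* in control medium, higher in KO by 1.89 in Mφ and 1.71 in M2, and fell with MPNST-CM from 12.8 to 2.04 CPM in KO Mφ and from 58.2 to 4.63 CPM in KO M2. *Abhd5*, the activator of the main triglyceride lipase *Pnpla2*, was lower in KO cells in MPNST-CM, with means of 37.6 against 58.1 CPM in Mφ and 47.3 against 63.6 CPM in M2.

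**Figure D4:**
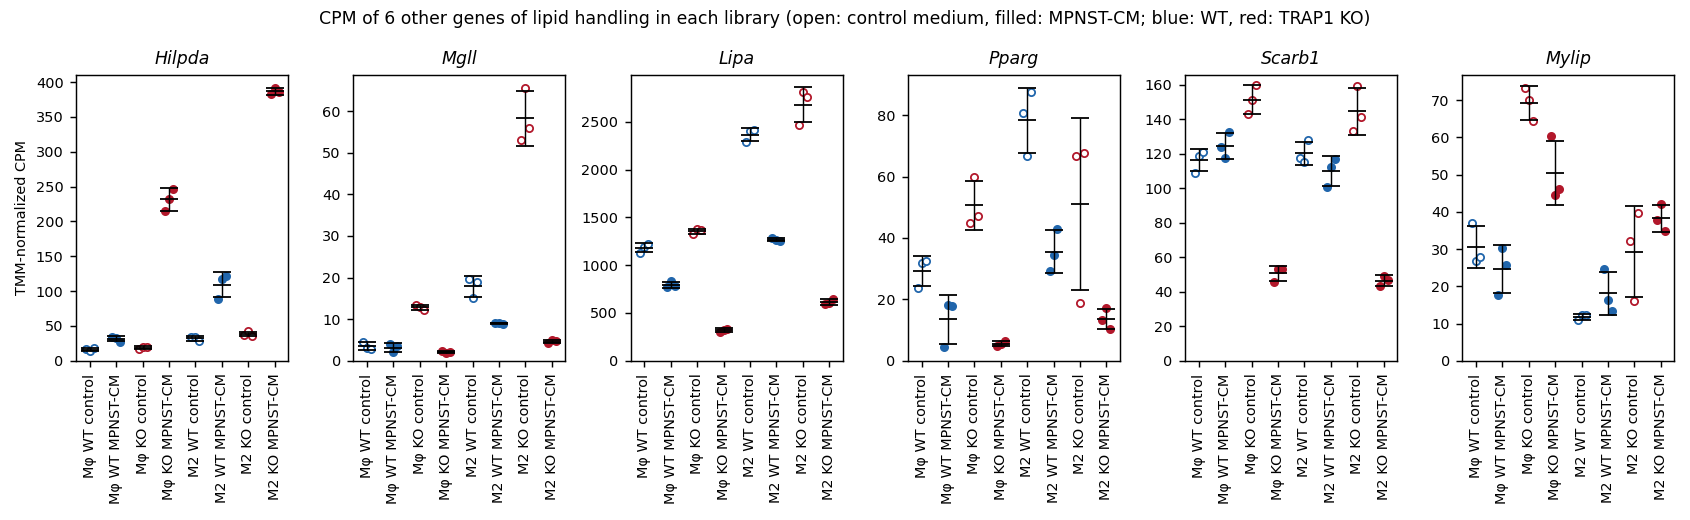
TMM-normalized CPM of 6 further genes of lipid handling (panels, linear axes from 0) in the 24 libraries, with the same symbols and error bars as the plot of the 10 genes. *Hilpda* reaches a mean of 232 CPM in KO Mφ and 387 CPM in KO M2 in MPNST-CM, and *Mgll*, *Lipa*, *Pparg* and *Scarb1* are lower in those 2 groups than in the KO groups in control medium.

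*Trem2*, the receptor that binds lipids and lipoproteins and signals through the adaptor TYROBP, fell with MPNST-CM and rose with IL-4 in all 4 settings of each. Mφ had 581, 609 and 615 CPM in WT and 582, 607 and 649 CPM in KO in control medium. They had 473, 401 and 427 CPM in WT and 312, 348 and 346 CPM in KO in MPNST-CM. In M2 it was 899, 899 and 963 CPM in WT and 1036, 1036 and 969 CPM in KO in control medium. It was 534, 546 and 542 CPM in WT and 433, 408 and 400.2 CPM in KO in MPNST-CM. No library in MPNST-CM reached the range of its group in control medium, and the KO libraries were below the WT libraries in MPNST-CM in both cell types. The fall with MPNST-CM was -0.47 ± 0.071 (SE, edgeR adjusted p = 2.11e-05) in WT Mφ and -0.87 ± 0.072 (SE, edgeR adjusted p = 1.78e-10) in KO Mφ. In M2 it was -0.77 ± 0.072 (SE, edgeR adjusted p = 4.05e-09) in WT and -1.29 ± 0.072 (SE, edgeR adjusted p = 5.69e-14) in KO. Its size differed between genotypes by -0.40 in Mφ (adjusted p = 0.00517) and -0.52 in M2 (adjusted p = 0.000334). KO against WT gave -0.37 in Mφ and -0.39 in M2 in MPNST-CM, both called, and 0.026 and 0.14 in control medium, neither called. With all 27 libraries the M2 difference of responses was 0.011 (adjusted p = 0.993).

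All 15 genes of a list of TREM2 partners and lipid-associated macrophage genes were tested. MPNST-CM raised 4 (16.7% of all genes) and lowered 10 (20.2%) in KO M2, and raised 4 (11.2%) and lowered 9 (13.3%) in WT M2. It raised 5 (14.8%) and lowered 6 (18.1%) in KO Mφ, and raised 4 (11.3%) and lowered 5 (9.96%) in WT Mφ. *Clec7a*, the β-glucan receptor dectin-1, and *Itgax*, the integrin CD11c, fell with MPNST-CM in all 4 settings, *Clec7a* from 326 to 35.7 CPM in KO Mφ and *Itgax* from 777 to 121 CPM in KO M2. *Axl*, a receptor for apoptotic cells, was lower in KO than in WT cells in MPNST-CM by 1.49 in Mφ and 1.92 in M2 on the log2 scale. *Trem1*, an activating receptor of the same family, rose with MPNST-CM in all 4 settings, where *Trem2* fell, from 1.75 to 20.9 CPM in WT Mφ and from 0.47 to 54.1 CPM in KO Mφ. IL-4 raised *Itgax* in all 4 settings, by 3.71 to 4.38, beside the rise of *Trem2* by 0.30 to 0.73.

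The response to MPNST-CM also differed between M2 and Mφ. In WT cells 2 members had a higher (5.23% of all genes) and 3 a lower response in M2 (6.91%), and in KO cells 2 a higher (5.48%) and 2 a lower one (6.01%). *Fabp4* in WT cells differed by -1.72 ± 0.20 (SE, edgeR adjusted p = 1.15e-06), with a rise in Mφ and a fall in M2. *Cd36* differed by -0.63 in WT and -1.13 in KO cells (adjusted p = 0.00508 and 3.76e-06). *Lpl* in KO cells went the other way, by 0.93 ± 0.11 (SE, edgeR adjusted p = 4.98e-07), its fall being smaller in M2. *Abca1* differed by 0.60 in WT cells (adjusted p = 0.0258, a call lost without any of 5 single libraries) and 0.67 in KO cells (adjusted p = 0.00960).

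In the order of the 8 group means, *Lpl* ran from 20644 CPM in WT M2 in control medium to 758 CPM in KO Mφ in MPNST-CM, a 27.2-fold range, and *Fabp4* had an 18.7-fold range, from KO M2 in control medium to KO Mφ in MPNST-CM. *Cd36* had a range of 10.5-fold, *Apoe* 6.601-fold, *Abcg1* 5.57-fold, *Abca1* 5.24-fold, *Nr1h3* 3.80-fold, *Fabp5* 3.53-fold, *Trem2* 3.02-fold and *Plin2* 1.66-fold. KO Mφ in MPNST-CM was the lowest group for *Lpl*, *Fabp4*, *Trem2* and *Nr1h3*, and KO M2 in control medium the highest for *Abcg1*, *Plin2*, *Fabp4*, *Fabp5* and *Trem2*. Neighbours in the order overlapped in their ranges for *Lpl* between WT M2 in MPNST-CM, WT Mφ in control medium and KO Mφ in control medium, and for *Trem2* between KO and WT Mφ in control medium and between WT Mφ and KO M2 in MPNST-CM.

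Over the 24 libraries, which share their 8 groups, the log2 CPM of *Trem2* went most closely with *Nr1h3* (Pearson's r = 0.92), *Lpl* (0.91) and *Fabp4* (0.86) among the members, and that of *Lpl* with *Nr1h3* (0.86). The lowest was *Apoe* with *Cd36* (r = -0.67). Among 8205 genes with a mean of at least 10 CPM, those most like *Lpl* were *Efr3b* (r = 0.996), *Lipa* (0.980) and *Cadm1* (0.974), and those most like *Cd36* were *Lipn* (0.982), *Serpinb9b* (0.979) and *Hgsnat* (0.971). *Trem2* was most like *Galnt10*, *Mitf* and *Slc44a1* (0.974, 0.974 and 0.970), *Fabp4* most like *Cipc*, *Dcbld2* and *Dpp7* (0.975, 0.935 and 0.935). For *Abca1* they were *Golph3l*, *Sqstm1* and *Zfas1* (0.930, 0.920 and 0.920), for *Abcg1* *Bnip3l*, *P2rx4* and *Itm2c* (0.929, 0.926 and 0.912), and for *Apoe* *Tifa*, *Setd1b* and *Irf8* (0.947, 0.945 and 0.943). *Nr1h3* came closest to *LOC115488342*, *Crip1* and *Tfeb* (0.940, 0.928 and 0.925), *Plin2* to *Ahdc1*, *Ctsd* and *Tmem234* (0.916, 0.908 and 0.894), and *Fabp5*, with the lowest likeness, to *Slc38a6*, *Ndst2* and *AU022793* (0.813, 0.806 and 0.799). These values describe libraries of few groups and carry no test.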

How the data were processed

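Reads of 3′ mRNA-seq were trimmed (Trimmomatic), checked (FastQC), mapped with HISAT2, filtered on mapping quality with SAMtools and counted on genes with featureCounts by the authors, who deposited the raw counts per gene without normalization. The labels name the build mm39 and the study's methods name mm10, and the annotation and strand setting of the counting are not given in the sources used here. The library kit keeps the strand, and no antisense or overlapping gene is reported. The table has 32 columns, of which 27 matched described libraries by name and 5 were not used. Reads end next to the poly(A) tail, so a count does not grow with transcript length. Where levels of different genes stand side by side, as in the marker sums, the difference was not tested.

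The 10 members and all gene lists were chosen with earlier results of these data known, and so support nothing by having been chosen. The deposited counts entered edgeR 4.0.16 (run under R 4.3.3 with limma 3.58.1) after TMM scaling and removal of genes with few counts (filterByExpr), in a single quasi-likelihood model, robust to outlying genes, of all 8 groups, which share an estimate of the spread, and Benjamini-Hochberg adjustment over 13614 genes at 0.05, two-sided. The standard error is the absolute log2 fold change divided by the square root of F. The 16 contrasts were 12 pairs of groups and 4 differences of responses. The study's methods do not name covariates, and none was used. From each list, at most 4 called genes with the largest change and at least 10 CPM in the higher group of a comparison were named. Likeness was Pearson's r of log2 CPM (prior count 2). Counting error alone is covered by the floor of 3 counts.

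Replicate pairs were compared by chi-square per degree of freedom over genes whose 2 counts added to 20 or more, and differed by at least 2.11 in all 24 pairs. Libraries were said to stand apart above 10 with both other replicates and under 5 between those. Alternatives were DESeq2 1.42.0, median-of-ratios size factors, no filter, all 27 libraries, 25 and 18 libraries (both added after the data were seen), the replicate number as a block and each library left out in turn. The scripts were tested on simulated data. Motifs were searched on both strands of RefSeq promoter windows (GRCm38.p6), a build other than that of the counts.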

Additional observations from a re-analysis of the deposited data

Results flagged for a closer look

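In the 3 groups with a further library, of batch2, 10 of 30 sets of values of the 10 genes had 1 library far from the others by Dixon's test at 95%. In each of the 10 it was the batch2 library of a KO M2 group. Chance gives about 1 in 20 in independent sets, but these sets share the same libraries. The batch2 library of WT Mφ was not flagged. It still lay outside the batch1 range of its group for all members but *Fabp5*, with *Apoe* at 0.44 and *Fabp4* at 1.65 times the group mean. The CPM given here were scaled over all 27 libraries. The library labelled KO M2 in MPNST-CM, replicate 4, had 523 CPM of *Abcg1*, 23.9 CPM of *Nr1h3*, 14134 CPM of *Lpl*, 1595 CPM of *Cd36*, 215 CPM of *Fabp4* and 862 CPM of *Trem2*, all above the other 3 libraries of its group. The library labelled KO M2 in control medium, replicate 4, had 1346 CPM of *Lpl*, 420.0 CPM of *Cd36*, 174 CPM of *Fabp5* and 439 CPM of *Trem2*, all below the other 3. *Xist* had 308 and 404 CPM in these KO libraries of batch2, against at most 1.14 CPM in the 12 KO libraries of batch1. *Trap1* had 0 and 2 counts in them, as their KO label implies, against 252 counts in the batch2 library of WT Mφ. For the medium and the IL-4 treatment on their labels, batch and label cannot be told apart.

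The response to MPNST-CM differed between KO and WT cells by the test of the difference itself in 12 member values. As KO less WT on the log2 scale in Mφ these were 0.62 for *Abca1*, -0.81 for *Nr1h3*, -2.45 for *Lpl*, -3.96 for *Fabp4*, -1.78 for *Fabp5* and -0.40 for *Trem2*. In M2 they were 0.69 for *Abca1*, -1.29 for *Lpl*, -0.47 for *Cd36*, -1.96 for *Fabp4*, -0.86 for *Fabp5* and -0.52 for *Trem2*. The *Cd36* value was not called without replicate 2 of WT M2 in control medium, replicate 2 of KO M2 in MPNST-CM or replicate 3 of WT M2 in MPNST-CM, and that of *Nr1h3* not without replicate 3 of KO Mφ in MPNST-CM.

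Between M2 and Mφ the response differed in 9 member values. As M2 less Mφ in WT cells these were 0.60 for *Abca1*, 0.45 for *Apoe*, -0.94 for *Nr1h3*, -0.63 for *Cd36* and -1.72 for *Fabp4*, and in KO cells 0.67 for *Abca1*, 0.93 for *Lpl*, -1.13 for *Cd36* and -0.42 for *Trem2*. The *Apoe* value (adjusted p = 0.0465) was lost in 12 of 19 alternatives, which gave 0.25 to 0.69. It was not called without any 1 of replicates 1, 2 and 3 of WT Mφ in control medium, replicates 2 and 3 of WT Mφ and of WT M2 in MPNST-CM, and replicates 3 and 4 of WT M2 in control medium.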

How the results depend on the processing

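Of 160 values (10 genes in 16 comparisons) 109 were called with 24 libraries. In every alternative other than all 27 libraries 96 stayed called with the same sign, and 40 did when that was included. With all 27 libraries the members called for MPNST-CM were 2 (6.98%) in WT Mφ, 0 (7.39%) in WT M2 and 2 (6.02%) in KO M2. Shares of all genes called either way in the same fit are in brackets. KO against WT gave 4 (22.6%) in Mφ in MPNST-CM, 3 (8.29%) in M2 in control medium and 3 (12.2%) in M2 in MPNST-CM. IL-4 gave 4 (16.1%) in KO cells in control medium, 2 (8.77%) in WT and 3 (3.46%) in KO cells in MPNST-CM. The difference of responses between genotypes gave 2 (4.76%) in Mφ and 0 (1.31%) in M2. The difference between M2 and Mφ gave 0 (1.4%) in WT and 0 (2.97%) in KO cells. In that fit, by edgeR, 1.31 to 26.9% of all genes were called over the 16 comparisons, and it pools the batch2 libraries with their labelled groups. Under it 4 called values changed sign: *Fabp4* for KO against WT in M2 in MPNST-CM (0.67), *Lpl* (0.0010) and *Trem2* (0.011) for the genotype difference of responses in M2, and *Trem2* for that between M2 and Mφ in KO cells (0.12).

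The other sign changes were of values that were not called. With 27 libraries they were *Plin2* for MPNST-CM in WT Mφ (-0.0091) and for the genotype difference in Mφ (0.064) and M2 (0.046), *Trem2* for KO against WT in M2 in control medium (-0.10), *Abcg1* (-0.027) and *Fabp5* (-0.042) for IL-4 in KO cells in control medium, and *Abca1* for IL-4 in KO cells in MPNST-CM (-0.17). With 25 libraries they were *Plin2* for MPNST-CM in WT Mφ (-0.0077) and for the genotype difference in Mφ (0.053). With 18 libraries IL-4 in WT cells in MPNST-CM had 9 members called in place of 5 (24.9% of all genes with 24 libraries). Called in addition were *Abca1* (-0.30), *Plin2* (0.18), *Fabp4* (0.35) and *Fabp5* (0.25). The share of all genes with 18 libraries is not given, so this count is no result about the members. Sign changes with 18 libraries were *Plin2* for MPNST-CM in KO Mφ (-0.079) and *Fabp5* for KO against WT in Mφ in MPNST-CM (0.033). *Nr1h3* changed sign for KO against WT in M2 in control medium (0.069) and for IL-4 in WT cells in MPNST-CM (0.054). *Cd36* (-0.015) and *Abcg1* (-0.047) did so for the genotype difference in Mφ and M2. *Abcg1* also did for the difference between M2 and Mφ in KO cells (-0.097). The cause was not tested.

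Leaving out single libraries gave 3 to 6 members called for the difference between M2 and Mφ in WT cells (5 with all 24, 3 without replicate 3 of WT Mφ or replicate 4 of WT M2, both in control medium). Ranges that crossed 0 were -0.018 to 0.062 for *Trem2* for KO against WT in Mφ in control medium, -0.22 to 0.17 for *Fabp5* in Mφ and -0.0041 to 0.23 in M2 in MPNST-CM, -0.15 to 0.044 for *Nr1h3* in M2 in control medium, -0.040 to 0.046 for *Plin2* for MPNST-CM in KO Mφ, and -0.043 to 0.37 for *Fabp5* for IL-4 in WT cells in MPNST-CM. For the genotype difference in Mφ they were -0.15 to 0.078 for *Apoe*, -0.12 to 0.12 for *Cd36* and -0.073 to 0.014 for *Plin2*, and for the difference between M2 and Mφ in KO cells -0.080 to 0.25 for *Abcg1* and -0.064 to 0.21 for *Nr1h3*.

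Replicate numbers were not used to pair libraries in the main fit. The correlation of deviations ran from -0.21 to 0.52 among 77 pairs with the same number (mean 0.11). It ran from -0.38 to 0.30 among 175 others (mean -0.045). The mean was higher with the same number, and the main fit holds no term for it. With the replicate block 151 of 160 values kept sign and side of the threshold, 7 were called in addition, such as *Fabp5* for MPNST-CM in KO M2 (-0.44, adjusted p = 0.00106), and *Abca1* and *Apoe* for the difference between M2 and Mφ in WT cells were no longer called (0.56 and 0.40). DESeq2 lost no call and added 6, size factors lost 1 and added 3, and no filter lost 2 and added 5. The median of all genes moved by at most 0.040 between scalings.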

Other observations

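The gene lists chosen with earlier results known also moved with IL-4. Of the 16 tested genes of droplets and triglyceride turnover, IL-4 raised 9 (19.1% of all genes were called higher) and lowered none (18.1% called lower) in WT cells in control medium, where *Mgll* rose from a mean of 3.46 to 17.9 CPM, *Hilpda* from 16.2 to 32.1 CPM and *Dgat1*, which makes triglycerides from diglycerides, from 13.2 to 22.05 CPM. In KO cells in MPNST-CM it raised 2 of the 16 (6.71%) and lowered none (4.47%). Of the 15 genes of TREM2 partners and lipid-associated macrophages, IL-4 raised 10 (19.1%) and lowered 3 (18.1%) in WT cells in control medium, the raised ones including *Clec7a* (170.03 to 1393 CPM) and *Lgals3*, a galectin of phagocytes (4138 to 13026 CPM). The list of IL-4 response markers summed to 686 to 759 CPM in Mφ in control medium, 1173 to 1350.4 CPM in WT and 2555 to 2675 CPM in KO Mφ in MPNST-CM, and 2724 to 4670.2 CPM in M2. In Mφ nearly all of the sum was *Mrc1*. KO Mφ in MPNST-CM had 2542 to 2659 CPM of it, beside means of 0.958 CPM for *Retnla* and 0.415 CPM for *Chil3*. Between control medium and MPNST-CM in WT M2, *Retnla* went from a mean of 1673 to 318 CPM. *Chil3*, *Ear2* and *Ccl24* were also lower there, while *Mrc1*, *Arg1* and *Mgl2* were higher.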
